A study of Mus musculus with 32 samples.

Results

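The comparison described here is the addition of TNF to IFN in mouse lung endothelial cells (ECs) in which Dnmt1, the enzyme that copies DNA methylation onto new strands, was silenced. It set the 4 libraries of si-dnmt + TNF + IFN against the 4 libraries of si-dnmt + IFN, which are 8 of the 32 RNA-seq libraries of the series, over 15254 genes. The libraries were chosen by their labels alone, and all genes that passed a filter on low counts were tested. Both groups were Veravec cells, 1 EC line in culture, transfected and then transfected again with siRNA against Dnmt1. Both received IFN (IFNγ, 1000 U/mL) for 16 h, and si-dnmt + TNF + IFN also received TNF (TNFα, 10 ng/mL). The labels call the replicates biological but do not say that they came from separate cultures, so the p-values measure the spread between these samples, which may be technical. For comparison, 8 libraries held the same 2 cytokine states after a control siRNA (si-control + IFN and si-control + TNF + IFN) and 8 held si-dnmt cells with TNF or with no cytokine.

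TNF acts on ECs through TNFR1 and a kinase cascade that frees the transcription factor NF-kB, which turns on chemokines, leukocyte adhesion molecules and its own inhibitors. IFNγ acts through JAK kinases and transcription factors that turn on antigen presentation, guanylate-binding proteins and the chemokines that attract T cells. The pathways meet at many promoters, and ECs exposed to both cytokines are known for shifting from a quiescent barrier to an inflamed surface that recruits lymphocytes.

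Dnmt1 (ENSMUSG00000004099) measured 11.7, 11.1, 5.11 and 5.80 CPM in si-dnmt + IFN and 17.3, 13.1, 5.84 and 5.78 CPM in si-dnmt + TNF + IFN in replicates 1 to 4 (CPM, read counts scaled to the library size with TMM factors). Its level did not pass the test between the groups (log2 fold change 0.32 ± 0.36, adjusted p = 0.581), although within replicates 1 and 2 alone it was called higher with TNF (0.42, adjusted p = 0.0129). Here and below, a log2 fold change is given ± its SE, and the adjusted p is that of edgeR's quasi-likelihood test with Benjamini-Hochberg adjustment over all genes. The si-control groups held 129.7 ± 49.9 CPM with IFN and 177 ± 35.3 CPM with TNF + IFN (mean ± SD, n = 4), so both si-dnmt groups were low in the direction of their label. Sequencing depth was 17908206 to 33500030 counts for the IFN libraries and 17362546 to 20703292 counts for those with TNF added. Of the variance of log2 CPM in the 8 libraries, 50.06% lay on a first component that separated the groups. The second component (28.76%) separated replicates 1 and 2 from replicates 3 and 4 in both groups, a split the labels do not describe. Defining markers of leukocytes were near absent: Cd3d, Cd3e, Nkg7, Tyrobp and Adgre1 had 0 counts in all 8 libraries, and Ptprc, Itgam and Spi1 had at most 3. Of 14 leukocyte markers 3 passed the filter, Cd68 being the most abundant, and their summed level was 133 to 145 CPM with IFN against 63.4 to 121 CPM with TNF added. The summed markers of fibroblasts (180 to 273 against 133 to 235 CPM) and of pericytes and smooth muscle (83.0 to 240.0 against 55.3 to 129 CPM) overlapped between the groups, with Rgs5 at 0 throughout. Single markers were called both ways: of the fibroblast list Dcn rose (3.07 ± 0.67, adjusted p = 0.000994) and Col3a1 fell (-3.09 ± 0.36, adjusted p = 1.82e-07), of the leukocyte list Lyz2 fell from 36.5 ± 25.3 to 3.90 ± 2.91 CPM (-3.24 ± 0.83, adjusted p = 0.00451, or -3.82 without si-dnmt + TNF + IFN replicate 2), and of the lymphatic list Pdpn rose (0.77 ± 0.18, adjusted p = 0.00235). Those of epithelial cells were lower with TNF (9.12 to 18.9 against 5.36 to 9.07 CPM, with Sftpc, Scgb1a1 and Krt5 at 0 throughout), and those of lymphatic ECs overlapped (543 to 842 against 648 to 1030 CPM). The part of such cells in the results was not tested.

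Adding TNF changed 3607 of the 15254 genes at an adjusted p under 0.05 (23.6% called), with 1884 higher (12.4%) and 1723 lower (11.3%). A change of at least 2-fold was held by 684 of the higher genes (4.48% of all tested) and 509 of the lower genes (3.34%). The median gene moved by 0.01 on the log2 scale. The 4 libraries of one group lay wholly above or below those of the other for 4236 genes (27.8%). The labels do not say whether the replicate numbers pair the samples. With the number as a block the same test called 5470 genes, among them all 3607. Within replicates 1 and 2 alone 3201 of the 3607 were called in the same direction, and within replicates 3 and 4 alone 3057. Counts of genes and lists below are to be read against these shares of all genes.

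**Figure D1:**
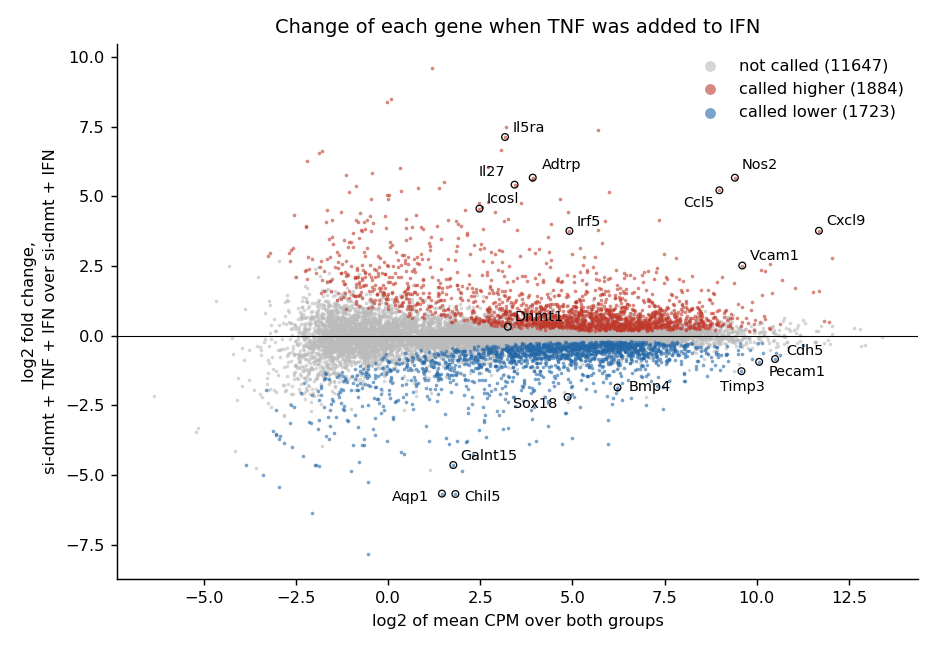
Log2 fold change (si-dnmt + TNF + IFN over si-dnmt + IFN) of each gene against the log2 of its mean CPM, with 1884 genes called higher in red, 1723 called lower in blue and 11647 not called in grey. Inflammatory genes such as Nos2, Ccl5 and Cxcl9 lay high at large mean levels, while the largest falls, such as Aqp1 and Chil5, were of genes at low levels, and Cdh5 and Pecam1 fell from high levels.

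The largest rises that met the naming rule (a change of at least 2-fold, no overlap between the groups and at least 1 CPM in the higher group) were those of H2-M2, Il5ra, Pglyrp2, Saa3, Spib, Pglyrp3, Adtrp, Nos2, Cldn1, Ltb, Il27 and Tnf. The rule was met by 456 rises and 355 falls. H2-M2, a non-classical MHC class I gene, had 0 counts in every si-dnmt + IFN library and 8.0, 8.46, 0.694 and 1.14 CPM in si-dnmt + TNF + IFN replicates 1 to 4. Taking 3 counts per library as the floor, it was at least 35.3-fold higher (adjusted p = 0.000137). Il5ra, the interleukin-5 receptor chain, went from 0, 0.126, 0.230 and 0.115 CPM to 30.4, 19.7, 10.9 and 10.6 CPM in replicates 1 to 4 (log2 fold change 7.13 ± 0.57, adjusted p = 4.78e-09). From here on, values are in that order, first for si-dnmt + IFN and then for si-dnmt + TNF + IFN. Adtrp, an enzyme that breaks down fatty acid esters of hydroxy fatty acids, rose from 0.667, 0.462, 0.690 and 0.519 CPM to 27.7, 28.3, 30.8 and 32.2 CPM (log2 fold change 5.67 ± 0.36, adjusted p = 2.01e-11). Cldn1, a tight junction protein usual in epithelium, rose from 0.667, 0.631, 0.552 and 0.606 CPM to 34.2, 32.2, 25.9 and 25.6 CPM (log2 fold change 5.58 ± 0.41, adjusted p = 6.64e-11). Both peptidoglycan recognition genes were near 0 under IFN alone: Pglyrp2 rose from 0.158 ± 0.119 to 16.5 ± 5.60 CPM (mean ± SD, n = 4), and Pglyrp3, with at most 3 counts in each si-dnmt + IFN library, was higher by a ratio of 72.5-fold (95% counting interval 19.6 to 606). Saa3, an acute phase protein, went from 0.222, 0.589, 0 and 0 CPM to 20.1, 25.7, 3.30 and 2.22 CPM. Its log2 fold change of 6.04 ± 1.21 (adjusted p = 0.000441) became 7.70 without si-dnmt + IFN replicate 2 and 5.44 without si-dnmt + TNF + IFN replicate 2. Saa3 and H2-M2 were several times higher in replicates 1 and 2 than in replicates 3 and 4 of si-dnmt + TNF + IFN, while Adtrp and Cldn1 were close in all 4.

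The promoters of H2-M2, Spib and Ltb are printed because they hold the motif bound by NF-kB, the factor through which TNF acts. The kB motif searched was the 10 bases GGGRNNYYCC, where R is A or G, Y is C or T and N is any base. A match on the other strand reads GGRRNNYCCC. It was searched on both strands from 250 bases before to 50 bases after each start in RefSeq (GRCm38.p6), of which 10527 of 15249 symbols had a window. Of the 12 named rises 9 had a window and 3 of them held the motif, marked in capitals below, while 0 of the 10 named falls with a window held it. The window of H2-M2 is chr17:37483505-37483804 on the minus strand, that of Spib, a transcription factor of B cells, is chr7:44532022-44532321 on the minus strand, and that of Ltb, lymphotoxin beta, is chr17:35194257-35194556 on the plus strand.
H2-M2: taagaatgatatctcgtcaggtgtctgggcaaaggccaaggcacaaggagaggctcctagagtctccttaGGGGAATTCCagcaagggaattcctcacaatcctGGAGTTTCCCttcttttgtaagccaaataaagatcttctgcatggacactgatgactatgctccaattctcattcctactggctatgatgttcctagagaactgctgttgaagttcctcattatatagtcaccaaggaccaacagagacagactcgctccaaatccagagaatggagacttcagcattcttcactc
Spib: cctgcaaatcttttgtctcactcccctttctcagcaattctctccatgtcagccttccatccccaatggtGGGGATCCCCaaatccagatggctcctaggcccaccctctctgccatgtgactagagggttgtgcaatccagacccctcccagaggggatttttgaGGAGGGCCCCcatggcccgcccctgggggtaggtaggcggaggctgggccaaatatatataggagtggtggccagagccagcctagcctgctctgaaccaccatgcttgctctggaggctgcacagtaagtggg
Ltb: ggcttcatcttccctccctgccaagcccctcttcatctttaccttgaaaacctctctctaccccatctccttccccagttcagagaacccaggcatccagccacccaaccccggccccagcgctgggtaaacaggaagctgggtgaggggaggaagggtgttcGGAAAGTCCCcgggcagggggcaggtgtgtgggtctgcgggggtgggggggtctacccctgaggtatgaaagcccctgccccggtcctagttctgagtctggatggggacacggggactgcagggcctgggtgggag
The H2-M2 and Spib windows held 2 kB matches each and the Ltb window 1. Over all genes with a window the motif was held by 12.5%, against 20.1% of the genes called at least 2-fold higher (93 of 462), 10.5% of those at least 2-fold lower (37 of 352) and 12.1% of those not called. The ISRE core GAAANNGAAA, bound by interferon regulatory factors, was held by 3.98% of all genes, 10.6% of those at least 2-fold higher and 3.69% of those at least 2-fold lower. The GAS motif TTCNNNGAA, the gamma-activated site of interferon-induced promoters, was held by 8.44%, 10.6% and 7.39% in the same order. A match is only a description of the sequence, and a window without one says only that these letters are not in it.

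Spib itself had 3 counts in si-dnmt + IFN replicate 1 and 0 in replicates 2 to 4, and measured 3.32, 2.28, 2.14 and 2.02 CPM with TNF, a ratio of 79.0-fold (95% counting interval 26.6 to 387), with adjusted p = 9.21e-07. Ltb went from 0, 0.0841, 0.0920 and 0.231 CPM to 7.75, 7.02, 3.59 and 3.95 CPM (log2 fold change 5.50 ± 0.89, adjusted p = 3.25e-05, or 6.34 without si-dnmt + IFN replicate 4). Tnf, the gene of the added cytokine itself, went from 0, 0.0841, 0.0920 and 0.115 CPM to 3.75, 5.58, 2.20 and 2.07 CPM (log2 fold change 5.32 ± 0.67, adjusted p = 1.56e-06). All 3 were nearly silent under IFN alone and above 2 CPM in every library with TNF.

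Among NF-kB subunits and their feedback inhibitors 13 of 21 tested members were called higher and 0 lower (median log2 fold change 0.67, against 0.01 over all genes). Tnfaip3, the ubiquitin-editing enzyme A20 that ends NF-kB signalling, rose from 49.2, 43.0, 66.6 and 68.8 CPM to 367, 345, 425 and 424 CPM (log2 fold change 2.78 ± 0.18, adjusted p = 6.16e-12). Nfkbie, an inhibitor that holds NF-kB in the cytoplasm, rose from 35.0, 30.9, 31.5 and 31.2 CPM to 142, 160.3, 120.5 and 119.6 CPM (log2 fold change 2.08 ± 0.21, adjusted p = 1.96e-08). The groups lay far apart for both genes. Tnip1, a partner of A20, rose by 1.65 ± 0.29 on the log2 scale (adjusted p = 7.34e-05), and Tnip3, with at most 3 counts in each library under IFN alone, was higher by a ratio of 22.1-fold (95% counting interval 9.77 to 61.6). Among TNF receptors and adaptors 9 of 15 were called higher and 2 lower. Birc3, a ubiquitin ligase of the receptor complex, rose from 37.6, 41.5, 32.6 and 29.3 CPM to 122, 129, 103 and 94.7 CPM (log2 fold change 1.67 ± 0.22, adjusted p = 1.7e-06). The adaptor Traf1 rose from 13.8 ± 0.758 to 52.1 ± 5.15 CPM (log2 fold change 1.92 ± 0.17, adjusted p = 1.74e-09). The members that fell were receptors: Tnfrsf1a, which encodes TNFR1, went from 283, 275, 221 and 248 CPM to 165, 195, 186 and 187 CPM (log2 fold change -0.49 ± 0.11, adjusted p = 0.00109). Ltbr, the lymphotoxin beta receptor, changed by -0.36 ± 0.12 (adjusted p = 0.0323). Leaving out si-dnmt + IFN replicate 1 or 4, or si-dnmt + TNF + IFN replicate 1 or 3, lost the call of Ltbr. The log2 fold changes were then -0.35, -0.34, -0.32 and -0.37, which leaves 1 lower member.

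Most chemokines that passed the filter on low counts rose. Of 10 CXC chemokines tested 9 were called higher and 0 lower (median 2.54), and of 12 CC chemokines and fractalkine 9 were called higher and 0 lower (median 2.89). With no filter the medians were 2.06 and 1.14. Ccl5, which draws T cells and monocytes, rose from 32.7, 37.8, 16.1 and 19.4 CPM to 998, 1326, 745 and 879 CPM (log2 fold change 5.22 ± 0.40, adjusted p = 1.57e-10). Cxcl9, a ligand of CXCR3 on T cells, rose from 687, 714, 212 and 190.2 CPM to 8457, 8131, 4045 and 3888 CPM (log2 fold change 3.77 ± 0.54, adjusted p = 5.41e-06). Every library with TNF exceeded every library without it for both genes, although replicates 3 and 4 were lower than replicates 1 and 2 in each group. The other CXCR3 ligands also rose, Cxcl11 from 22.4, 26.7, 9.98 and 9.46 CPM to 442, 386, 183 and 211 CPM (log2 fold change 4.16 ± 0.53, adjusted p = 1.01e-06). Cxcl10 rose from 434, 430.4, 279.6 and 319 CPM to 1879.9, 2054, 1643 and 1840.1 CPM (log2 fold change 2.34 ± 0.29, adjusted p = 4.53e-07). On the log2 scale Cxcl10 thus changed by less than Cxcl9 and Cxcl11. The neutrophil chemokine Cxcl3 rose from 4.84, 7.31, 7.41 and 6.00 CPM to 89.9, 102, 129 and 129 CPM (log2 fold change 4.13 ± 0.40, adjusted p = 1.14e-08). Cxcl2, another one, rose from 7.36 ± 2.01 to 56.0 ± 7.2 CPM (log2 fold change 2.92 ± 0.46, adjusted p = 1.96e-05). Ccl20, the ligand of CCR6, rose from 0.333, 0.589, 0.736 and 0.202 CPM to 12.5, 12.5, 10.6 and 8.99 CPM (log2 fold change 4.61 ± 0.49, adjusted p = 4.49e-08). Cxcl12, which draws CXCR4-bearing cells, did not pass the test (from 147 ± 81.6 to 269 ± 32.5 CPM, adjusted p = 0.183).

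**Figure D2:**
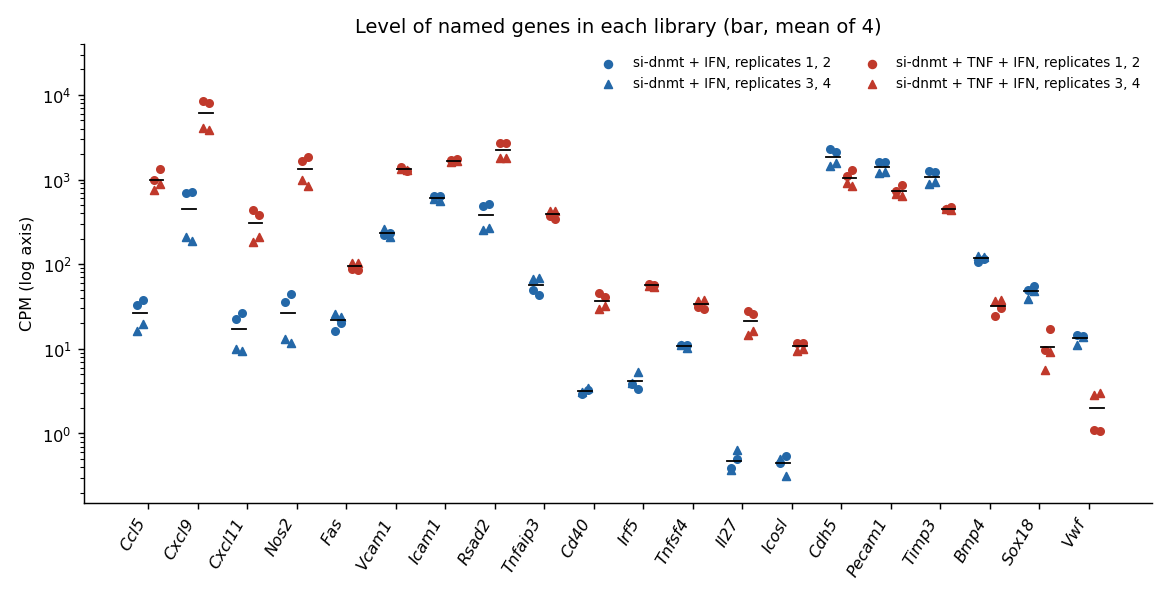
CPM on a log axis of 20 genes in each library, si-dnmt + IFN in blue and si-dnmt + TNF + IFN in red, with circles for replicates 1 and 2, triangles for replicates 3 and 4 and a bar for the mean of 4. The 14 genes from Ccl5 to Icosl were higher and the 6 genes from Cdh5 to Vwf lower with TNF, with no overlap between the groups. Replicates 3 and 4 lay below replicates 1 and 2 in both groups for genes that rose, such as Ccl5, Cxcl9, Cxcl11, Nos2, Icam1 and Rsad2. The same held for genes that fell, such as Cdh5, Pecam1 and Sox18.

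Cytokine genes were called higher in 11 of 16 tested members and lower in 0 (median 1.54). Only these 16 of 23 fixed members passed the filter on low counts, and with no filter the median was 1.24. Members near 0 under IFN alone, such as Il27, could hardly fall. Il27, which encodes the p28 subunit of interleukin-27, rose from 0.389, 0.504, 0.368 and 0.635 CPM to 27.8, 25.7, 14.5 and 16.3 CPM (log2 fold change 5.42 ± 0.37, adjusted p = 1.89e-11). Its exons overlap those of Apobr on the other strand, and without a stated strand setting reads of the pair cannot be told apart. Ebi3, which encodes the other subunit of the same cytokine, rose from 0.278, 0.715, 0.184 and 0.260 CPM to 2.40, 3.90, 1.68 and 1.63 CPM (log2 fold change 2.72 ± 0.49, adjusted p = 0.00011). Csf2, the growth factor GM-CSF, rose from 0.222, 0.757, 0.368 and 0.317 CPM to 3.82, 5.16, 3.82 and 2.96 CPM (log2 fold change 3.21 ± 0.53, adjusted p = 4.03e-05). These 3 genes were under 30 CPM in every library. Csf1, the growth factor of macrophages, was far more abundant and rose from 1505 ± 188 to 4426 ± 315 CPM (log2 fold change 1.56 ± 0.14, adjusted p = 1.6e-09). Ifnb1, which encodes interferon beta and was counted with the antiviral genes, rose from 0.0556, 0.294, 0.184 and 0.231 CPM to 1.97, 1.80, 1.68 and 2.42 CPM (log2 fold change 3.27 ± 0.68, adjusted p = 0.000681).

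Leukocyte adhesion genes were called higher in 4 of 14 members and lower in 2 (median -0.09, and 5 and 4 with the replicate block). Of all genes 12.4% were higher and 11.3% lower, so the lower share was near that of all genes. Vcam1, the ligand of integrin VLA-4 on lymphocytes, rose from 223, 235, 257 and 211 CPM to 1426, 1273, 1319 and 1284 CPM (log2 fold change 2.52 ± 0.11, adjusted p = 5.22e-15). Icam1, the ligand of LFA-1, rose from 636, 632, 595 and 555 CPM to 1684, 1774, 1598 and 1636 CPM (log2 fold change 1.47 ± 0.22, adjusted p = 1.07e-05). Sele, the selectin on which leukocytes roll, rose from 52.7, 46.3, 73.2 and 65.7 CPM to 104, 93.4, 129 and 111 CPM (log2 fold change 0.88 ± 0.24, adjusted p = 0.00837). The groups did not overlap for these genes. The libraries of each group were close together for Vcam1 and Icam1 and more spread for Sele. Madcam1, an addressin of gut and lymphoid vessels, was near 0 under IFN alone and went from 0, 0.462, 0.0460 and 0 CPM to 6.83, 10.3, 1.56 and 1.73 CPM (log2 fold change 5.28 ± 0.97, adjusted p = 0.000163). Its log2 fold change was 8.03 without si-dnmt + IFN replicate 2 and 4.68 without si-dnmt + TNF + IFN replicate 2. Vwf, the platelet-binding protein stored in ECs, fell from 14.6, 14.2, 11.1 and 13.7 CPM to 1.11, 1.08, 2.83 and 3.01 CPM (log2 fold change -2.72 ± 0.30, adjusted p = 1.09e-07). The other fall was that of Cd99l2, a junction protein used in transmigration (-0.40 ± 0.08, adjusted p = 0.000301).

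Ligands that co-stimulate or inhibit T cells were called higher in 6 of 16 tested members and lower in 0 (median 0.66; 9 and 1 with the replicate block). Without si-dnmt + IFN replicate 1 or si-dnmt + TNF + IFN replicate 3, 1 member was lower. Icosl, the ligand of ICOS, rose from 0.445, 0.546, 0.506 and 0.317 CPM to 11.6, 11.8, 9.43 and 9.83 CPM (log2 fold change 4.56 ± 0.42, adjusted p = 4.05e-09). Cd40, the receptor of CD40L on activated CD4 T cells, rose from 2.95, 3.28, 3.13 and 3.49 CPM to 46.2, 41.3, 29.4 and 31.7 CPM (log2 fold change 3.53 ± 0.30, adjusted p = 7.82e-10). Tnfsf4, which encodes OX40L, rose from 11.2, 11.2, 11.2 and 10.1 CPM to 30.9, 29.7, 36.7 and 38.0 CPM (log2 fold change 1.63 ± 0.21, adjusted p = 1.21e-06). The spread within each group was smaller than the gap between the groups for all 3 genes. Cd274, which encodes the inhibitory ligand PD-L1, rose from 427, 490.2, 334 and 323 CPM to 894, 886, 599.9 and 632 CPM (log2 fold change 0.94 ± 0.24, adjusted p = 0.00402), a smaller change on the log2 scale, from a high level. Cd80 and Cd276 did not pass the test (log2 fold changes -0.05 and 0.08).

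Within the interferon pathway, most antiviral genes rose. Of 31 antiviral interferon-stimulated genes 26 were called higher and 0 lower (median 1.16). Rsad2, the antiviral enzyme viperin, rose from 486, 512, 255 and 268 CPM to 2720.01, 2675, 1786 and 1810.01 CPM (log2 fold change 2.57 ± 0.46, adjusted p = 0.000116). Mx1, a dynamin-like antiviral GTPase, rose from 57.9, 58.3, 23.1 and 28.3 CPM to 283, 261, 130.2 and 143 CPM (log2 fold change 2.29 ± 0.45, adjusted p = 0.000397). Of 19 interferon-inducible GTPases, which defend the cell against intracellular microbes, 2 were called higher and 0 lower (median 0.26), a share near the 12.4% of all genes. The count was 8 with the replicate block, 8 in replicates 1 and 2 alone and 11 in replicates 3 and 4 alone. Gbp3 rose from 1000.2, 1163, 821 and 825 CPM to 1632, 1617, 1312 and 1228 CPM (log2 fold change 0.60 ± 0.18, adjusted p = 0.0122). The other was Gbp8 (0.81 ± 0.20, adjusted p = 0.00298), whose exons overlap those of Gbp4 and Gbp9. Gbp4 went from 1415, 1424, 1025 and 1020.4 CPM to 1887, 1784, 1297 and 1267 CPM (log2 fold change 0.35 ± 0.24, adjusted p = 0.323). Gbp10 went from 685, 734, 358 and 418 CPM to 776, 777, 461 and 448 CPM (log2 fold change 0.17 ± 0.28, adjusted p = 0.739). Neither passed the test, but Gbp4 was higher in each pair of same-numbered libraries and was called within replicates 1 and 2 alone (0.37, adjusted p = 0.00708) and within replicates 3 and 4 alone (0.33, adjusted p = 0.0105). Whether the lists differ was not tested.

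Among interferon receptors, kinases, STATs, IRFs and their brakes 13 of 25 were called higher and 0 lower (median 0.38). The count fell to 8 without si-dnmt + IFN replicate 3 and to 8 without si-dnmt + TNF + IFN replicate 1. Irf5, a transcription factor of the inflammatory response, rose from 3.89, 3.36, 3.96 and 5.28 CPM to 58.6, 56.8, 55.4 and 54.4 CPM (log2 fold change 3.76 ± 0.26, adjusted p = 1.38e-11). Its exons overlap those of Tnpo3 on the other strand, which held 96.1 and 104 CPM on average in the same groups. Ifngr1, the ligand-binding chain of the IFNγ receptor, rose from 30.5, 29.8, 29.5 and 28.5 CPM to 66.1, 65.6, 64.1 and 59.7 CPM (log2 fold change 1.11 ± 0.11, adjusted p = 1.87e-08). Usp18, a brake on type I interferon signalling, rose from 173 ± 43.9 to 538 ± 99.4 CPM (log2 fold change 1.63 ± 0.30, adjusted p = 0.000182).

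Antigen presentation genes serve to show peptides to T cells. Of 22 genes of the MHC class I pathway 9 were called higher and 0 lower, all 22 with a positive fold change (median 0.52). The count was 18 with the replicate block, and it fell to 5 without si-dnmt + IFN replicate 1 or 4, to 4 without si-dnmt + IFN replicate 3 and to 5 without si-dnmt + TNF + IFN replicate 2. Tap2, a chain of the peptide transporter, rose from 172, 180.3, 136 and 146 CPM to 274, 314, 256 and 269.6 CPM (log2 fold change 0.81 ± 0.17, adjusted p = 0.000743). Psmb10, a subunit of the immunoproteasome, rose from 201, 232, 198 and 230.5 CPM to 284, 325, 319 and 351 CPM (log2 fold change 0.57 ± 0.16, adjusted p = 0.0115). Of 14 genes of the MHC class II pathway 3 were called higher and 0 lower (median 0.69; 10 with the replicate block). Rfx5, a factor that binds class II promoters, rose from 26.2, 25, 20.7 and 22.2 CPM to 33.4, 39.9, 34.5 and 32.9 CPM (log2 fold change 0.58 ± 0.10, adjusted p = 7.3e-05). H2-DMb2, a chain of a class II peptide editor, rose from 1.62 ± 0.596 to 5.74 ± 2.96 CPM (log2 fold change 1.81 ± 0.50, adjusted p = 0.0114). H2-Oa went from 0.222, 0.0420, 0 and 0 CPM to 2.03, 2.04, 1.62 and 2.12 CPM (log2 fold change 5.04 ± 0.65, adjusted p = 2.12e-06, or 6.73 without si-dnmt + IFN replicate 1). The invariant chain Cd74 went from 393, 404, 133 and 145 CPM to 636, 746, 299 and 316 CPM and did not pass the test (log2 fold change 0.89 ± 0.54, adjusted p = 0.259), but was called with the replicate block. The spread between replicates 1 and 2 and replicates 3 and 4 in each group was larger than the difference between groups for this gene.

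Enzymes that make nitric oxide moved in opposite directions. Nos2, the inducible synthase, rose from 35.8, 44.0, 13.2 and 11.7 CPM to 1652, 1841, 976 and 848 CPM (log2 fold change 5.67 ± 0.56, adjusted p = 1.3e-08), a change seen in all 4 libraries. Nos3, the synthase of resting ECs, fell from 144, 129, 132 and 158 CPM to 73.8, 92.8, 78.5 and 80.7 CPM (log2 fold change -0.79 ± 0.12, adjusted p = 2.14e-05). Slc7a2, which imports the substrate arginine, went from 0.111, 0.210, 0.0460 and 0 CPM to 1.35, 1.68, 2.20 and 1.88 CPM (log2 fold change 4.3 ± 0.72, adjusted p = 4.71e-05, or 5.21 without si-dnmt + IFN replicate 2). Cybb, the catalytic subunit of the phagocyte oxidase, had 1 count under IFN alone, in replicate 1, and 0.888 CPM on average with TNF, a ratio of 86.4-fold (95% counting interval 14.9 to 3467). Of 19 oxidant and nitric oxide enzymes 7 were called higher and 1 lower (3 lower with the replicate block).

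Among 23 cell death and survival genes 8 were called higher and 1 lower (median 0.12). The lower count was 2 with the replicate block and without si-dnmt + TNF + IFN replicate 2. Fas, the death receptor, rose from 16.2, 20.3, 26.1 and 24.1 CPM to 87.5, 86.2, 103 and 102 CPM (log2 fold change 2.12 ± 0.23, adjusted p = 7.78e-08). Cflar, which blocks caspase-8 at that receptor, rose from 232, 267, 167 and 161 CPM to 576, 593, 389 and 361 CPM (log2 fold change 1.22 ± 0.20, adjusted p = 3.65e-05). Casp4, which cuts the pore protein gasdermin D, rose from 124 ± 15.3 to 255 ± 43.8 CPM (log2 fold change 1.03 ± 0.14, adjusted p = 1.66e-06). The inflammasome sensor Nlrp3 rose from 0.445, 0.504, 0.506 and 0.288 CPM to 4.92, 5.76, 8.39 and 8.84 CPM (log2 fold change 4.01 ± 0.38, adjusted p = 7.29e-09). Genes of death and of survival were therefore both among those that rose. The lower gene was Gsdme, another gasdermin (-0.59 ± 0.14, adjusted p = 0.00168).

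Complement genes were called higher in 7 of 16 members and lower in 3 (median 0.65). Cfb, which forms the convertase of the alternative pathway, rose from 14.3, 18.6, 7.27 and 5.86 CPM to 95.6, 89.5, 40.1 and 40.1 CPM (log2 fold change 2.53 ± 0.54, adjusted p = 0.000865). C1s1, a protease of the classical pathway, rose from 112 ± 67.6 to 491 ± 198 CPM (log2 fold change 2.13 ± 0.62, adjusted p = 0.0119). Among the members that fell, Cd55 and Cd59a protect the cell surface from complement. Cd55 fell from 116, 122, 118 and 116 CPM to 82.2, 82.7, 69.6 and 64.1 CPM (log2 fold change -0.66 ± 0.12, adjusted p = 0.000154). The fold change of Cd59a was -0.57 ± 0.14 (adjusted p = 0.00398). The regulator Serping1, which inhibits C1s, was called higher (1.53 ± 0.40, adjusted p = 0.00554), with overlapping groups, and its call was lost when only the 8 libraries compared were fitted.

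Coagulation and fibrinolysis genes fell more often than they rose, with 1 of 18 called higher and 6 lower (median -0.12; 2 higher with the replicate block). Thbd, thrombomodulin, which turns thrombin towards protein C, fell from 254, 247, 239 and 267 CPM to 142, 133, 148 and 139.6 CPM (log2 fold change -0.84 ± 0.18, adjusted p = 0.000677). Entpd1, the surface enzyme CD39 that degrades ATP and ADP, fell from 175, 173, 144 and 152 CPM to 85.0, 79.7, 73.9 and 70.1 CPM (log2 fold change -1.06 ± 0.10, adjusted p = 1.02e-08). The groups did not overlap for either of these. Ptgs1, the constitutive cyclooxygenase, fell from 18.6 ± 11.8 to 3.22 ± 1.20 CPM (log2 fold change -2.53 ± 0.56, adjusted p = 0.0012).

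Genes of endothelial identity, the receptors, junction proteins and transcription factors that mark ECs, were often lower. Of 32 tested members 15 were called lower and 1 higher (median -0.64). The higher count was 4 with the replicate block and 2 without si-dnmt + IFN replicate 2. Cdh5, the VE-cadherin of EC junctions, fell from 2277, 2129.5, 1440.1 and 1553 CPM to 1095, 1287, 914 and 847 CPM (log2 fold change -0.84 ± 0.23, adjusted p = 0.00837). Pecam1, which encodes CD31, fell from 1598, 1602, 1180.2 and 1243 CPM to 736, 873, 679 and 646 CPM (log2 fold change -0.94 ± 0.17, adjusted p = 0.000122). Both stayed abundant, and the groups did not overlap. The transcription factor Sox18 fell from 49.4, 54.7, 39.1 and 48.7 CPM to 9.78, 17.1, 5.67 and 9.24 CPM (log2 fold change -2.20 ± 0.44, adjusted p = 0.000464). The venous factor Nr2f2 fell from 96.0, 87.4, 52.3 and 53.7 CPM to 25.5, 29.4, 16.7 and 17.2 CPM (log2 fold change -1.70 ± 0.26, adjusted p = 1.49e-05). Sox17, an arterial factor, fell from 4.95, 5.04, 2.67 and 2.28 CPM to 0.123, 0.180, 0.463 and 0.741 CPM (log2 fold change -3.23 ± 0.72, adjusted p = 0.00124, or -3.82 without si-dnmt + TNF + IFN replicate 4). Cldn5, the claudin of tight endothelium, went from 26.1, 28.1, 2.39 and 6.55 CPM to 1.91, 3.24, 0.116 and 0.938 CPM (log2 fold change -3.36 ± 0.94, adjusted p = 0.00941, or -4.0 without si-dnmt + TNF + IFN replicate 2), and its groups overlapped, replicates 3 and 4 of si-dnmt + IFN being low. The member called higher was Gja4, a gap junction protein with 3 counts over the libraries under IFN alone, of which 2 were in replicate 4, and its ratio was 9.75-fold (95% counting interval 2.91 to 51.1). Of the 8 fixed endothelial markers 7 were called lower, but all 8 are members of this list, so these calls are already counted above. Their summed level was 4570 to 5990 CPM with IFN and 2420 to 3370 CPM with TNF + IFN (scaled by library total). In bulk RNA fewer cells of a type and less RNA per cell cannot be told apart.

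Notch pathway genes were called lower in 5 of 13 members and higher in 2 (median -0.58, and 8 lower with the replicate block). The higher share was near the 12.4% of all genes, of which 11.3% were lower. Nrarp, a target and inhibitor of Notch, fell from 10.0, 13.3, 8.56 and 11.9 CPM to 3.32, 3.60, 1.21 and 1.93 CPM (log2 fold change -2.13 ± 0.41, adjusted p = 0.0003). Jag1, a Notch ligand, fell from 151, 128, 173 and 156 CPM to 96.2, 102, 86.6 and 82.4 CPM (log2 fold change -0.73 ± 0.14, adjusted p = 0.000269). Dll1, another ligand, rose from 8.0, 8.11, 9.25 and 10.4 CPM to 25.5, 24.7, 22.7 and 23.2 CPM (log2 fold change 1.42 ± 0.22, adjusted p = 1.62e-05). Rbpj, the DNA-binding partner of Notch, rose by 0.98 ± 0.11 (adjusted p = 1.78e-07). Ligands therefore moved both ways.

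Among angiogenic ligands and the TGF-beta and BMP families 5 of 29 were called higher and 8 lower (median -0.06), beside 12.4% and 11.3% of all genes. Vegfc, the ligand of VEGFR3 on lymphatic ECs, rose from 0.889, 1.14, 1.98 and 1.96 CPM to 20.9, 20.0, 22.3 and 20.5 CPM (log2 fold change 3.78 ± 0.37, adjusted p = 9.97e-09). Bmp2 rose from 1.11, 0.883, 0.552 and 0.606 CPM to 14.4, 14.6, 7.69 and 7.80 CPM (log2 fold change 3.83 ± 0.67, adjusted p = 8.24e-05). Its relative Bmp4 fell from 106, 116, 124 and 123 CPM to 24.1, 30.5, 36.6 and 37.6 CPM (log2 fold change -1.86 ± 0.14, adjusted p = 9.29e-11). Id2, a target of BMP signalling, fell from 110.3, 107, 90.6 and 92.5 CPM to 22.2, 26.2, 19.7 and 22.1 CPM (log2 fold change -2.15 ± 0.21, adjusted p = 1.19e-08), as did Id1 (-1.11 ± 0.25, adjusted p = 0.00166). Vegfa, the main angiogenic ligand, rose from 7.06 ± 3.26 to 17.7 ± 3.28 CPM (log2 fold change 1.32 ± 0.37, adjusted p = 0.00918).

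Of 17 matrix proteases and inhibitors 4 were called higher and 5 lower (median -0.12, and 7 higher with the replicate block). Of 21 collagens and laminins 3 were called higher and 7 lower (median -0.24). The higher share of collagens and laminins was near the 12.4% of all genes, of which 11.3% were lower. Mmp13, a collagenase, rose from 0.222, 0.589, 0.368 and 0.346 CPM to 8.0, 8.28, 5.03 and 6.07 CPM (log2 fold change 4.13 ± 0.36, adjusted p = 1.29e-09). Timp3, an inhibitor of metalloproteinases, fell from 1253, 1245, 898 and 944 CPM to 446, 469, 446 and 435 CPM (log2 fold change -1.27 ± 0.16, adjusted p = 1.2e-06). The protease Adamts1 fell from 168, 156, 70.9 and 86.3 CPM to 30.9, 36.8, 29.6 and 29.1 CPM (log2 fold change -1.93 ± 0.36, adjusted p = 0.000176). The laminin chain Lama3, of epithelial basement membrane, rose from 2.55 ± 0.591 to 13.1 ± 2.18 CPM (log2 fold change 2.36 ± 0.34, adjusted p = 6.87e-06). Col8a1, a collagen of vascular matrix, fell from 832, 900.5, 571 and 546 CPM to 383, 371, 235 and 228 CPM (log2 fold change -1.23 ± 0.18, adjusted p = 1.01e-05). Mmp9, a gelatinase, had 5 counts in all under IFN alone, 3 of them in replicate 3, and was higher by a ratio of 37.1-fold (95% counting interval 15.5 to 116).

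Cell cycle genes were called higher in 8 of 25 members and lower in 0 (median 0.33). Within replicates 1 and 2 alone 16 were called higher and 3 lower, and within replicates 3 and 4 alone 10 and 2. Ccne1, cyclin E1, rose from 13.1, 11.7, 16.1 and 18.2 CPM to 35.5, 32.3, 31.6 and 31.3 CPM (log2 fold change 1.14 ± 0.16, adjusted p = 2.5e-06). Ccnd1, cyclin D1, rose from 259, 231, 401 and 396 CPM to 517, 435, 667 and 657 CPM (log2 fold change 0.82 ± 0.22, adjusted p = 0.00725). The helicase subunit Mcm5 rose from 60.5 ± 9.11 to 104 ± 6.52 CPM (log2 fold change 0.79 ± 0.23, adjusted p = 0.0125). The mitotic genes Cdk1 and Ccnb1, named after their values were seen, did not pass the test (log2 fold changes 0.17 and -0.00). Of 23 sterol synthesis genes and lipoprotein receptors 0 were called higher and 1 lower (edgeR), with a median of -0.40. The lower gene was Sqle (-0.91 ± 0.31, adjusted p = 0.0338), whose call was lost without si-dnmt + IFN replicate 1 (-0.81) or 2 (-0.81) and without si-dnmt + TNF + IFN replicate 1 (-0.94), 3 (-0.83) or 4 (-0.82). With the replicate block 11 were lower and 1 higher. Within replicates 1 and 2 alone 15 were lower and 1 higher, and within replicates 3 and 4 alone 12 and 1. Over all genes these 2 fits called 2367 and 2317 lower. Of the 23 members 3 had a positive fold change in the main fit.

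Of 14 DNA methylation genes 4 were called higher and 1 lower (median 0.15), with 2 higher without si-dnmt + IFN replicate 3 or 4 or si-dnmt + TNF + IFN replicate 1 or 2, and 0 lower without si-dnmt + IFN replicate 1 or 3 or si-dnmt + TNF + IFN replicate 2 (edgeR). Uhrf1, which recruits Dnmt1 to newly copied DNA, rose from 46.6, 42.5, 58.6 and 65.3 CPM to 116, 111, 102 and 93.0 CPM (log2 fold change 0.99 ± 0.27, adjusted p = 0.00812). Gadd45b, linked to active demethylation and to stress, rose from 27.8, 30.0, 36.4 and 36.1 CPM to 113, 116, 118 and 118 CPM (log2 fold change 1.83 ± 0.16, adjusted p = 9.12e-10). The groups did not overlap for either gene.

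**Figure D3:**
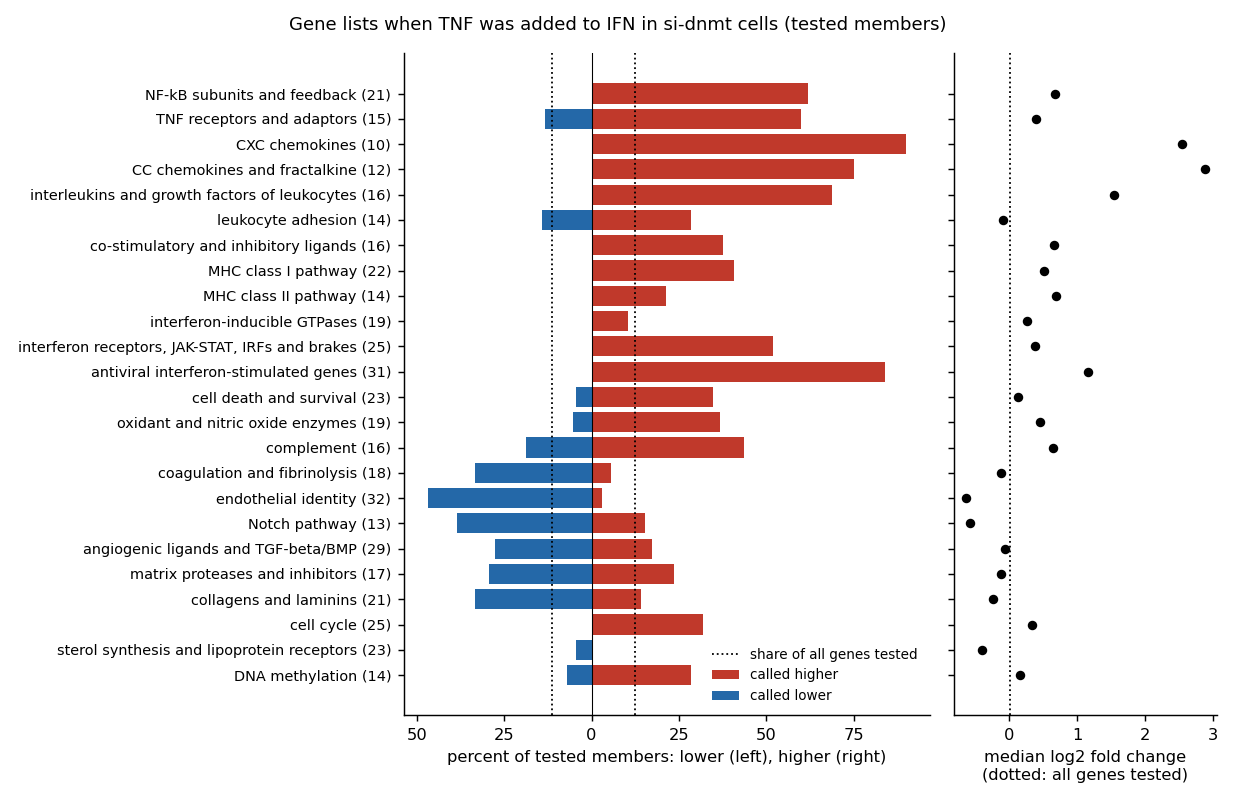
Left, the percent of tested members of each gene list called higher (red, to the right) and lower (blue, to the left), with the shares of all genes (12.4% and 11.3%) dotted and the number tested in brackets. Right, the median log2 fold change of the tested members, which ran from -0.64 for endothelial identity to 2.89 for the CC chemokines and fractalkine.

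The falls were led by Kcnk10, Chil5, Aqp1, Ccdc3, Cttnbp2, Galnt15, Lmcd1, Sncaip, Ptprq, Efcc1, Slco2b1 and Pcdh20, most of them at low levels. Aqp1, the water channel of lung ECs, went from 7.67, 8.32, 1.93 and 3.66 CPM to 0.123, 0.180, 0.0578 and 0.0494 CPM, a fall with a ratio of 51.8-fold (95% counting interval 24.9 to 129) and adjusted p = 1.23e-05. Galnt15, an enzyme that starts O-linked sugar chains, fell from 8.84, 10.1, 2.58 and 4.70 CPM to 0.492, 0.12, 0.174 and 0.247 CPM (log2 fold change -4.64 ± 0.61, adjusted p = 1.69e-06). Kcnk10, a potassium channel, measured 1.39, 2.77, 0.552 and 0.721 CPM with IFN and had 0 counts in all libraries with TNF + IFN, so it was at least 7.92-fold lower (adjusted p = 0.000292), a bound that rests most on si-dnmt + IFN replicate 2, the highest library. Replicates 1 and 2 held more of Aqp1, Galnt15 and Kcnk10 than replicates 3 and 4 under IFN alone. Chil5, a chitinase-like protein, went from 10.9, 13.5, 0.966 and 2.37 CPM to 0.369, 0.0600, 0.0578 and 0.0494 CPM (log2 fold change -5.68 ± 1.05, adjusted p = 0.000164, or -6.82 without si-dnmt + TNF + IFN replicate 1). Ccdc3, a secreted protein of vessels and fat, was at 1.34 ± 1.43 and 0.0304 ± 0.0351 CPM (adjusted p = 0.0131), and its call was lost without si-dnmt + IFN replicate 2 (adjusted p = 0.0709).

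Genes were next sorted by their response to each cytokine alone in si-control cells, whose 12 libraries are separate from those compared here. TNF raised 767 genes at least 2-fold there (5.03% of those tested) and IFN 621 (4.07%), while TNF lowered 695 (4.56%) and IFN 253 (1.66%). Of 484 genes raised by TNF and not by IFN, 335 rose when TNF was added to IFN in si-dnmt cells and 0 fell (69.2% and 0.0%, median 1.31). Of 283 genes raised by both cytokines 186 rose and 1 fell (65.7% and 0.353%, median 1.00), the fall being that of the receptor Epha7 (-0.79 ± 0.23, adjusted p = 0.0113), whose adjusted p was 0.0503 without si-dnmt + IFN replicate 1. Of 338 genes raised by IFN and not by TNF 88 rose and 37 fell (26.0% and 10.9%, median 0.23). Plac8 and Asb15 were among those that fell. Plac8, a cysteine-rich protein of immune cells, went from 8.28, 8.74, 1.56 and 3.58 CPM to 0.431, 0.780, 0.174 and 0.346 CPM (log2 fold change -3.67 ± 0.79, adjusted p = 0.000887). Slc39a2, a zinc importer, was among those that rose, from 1.53 ± 0.371 to 12.3 ± 4.83 CPM (log2 fold change 3.02 ± 0.40, adjusted p = 1.97e-06). Its exons overlap those of Mettl17.

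Of the 695 genes lowered by TNF in si-control cells 389 fell and 3 rose here (56.0% and 0.432%, median -1.06). The 3 were A530032D15Rik, Hopx and the exchange factor Mcf2l, which rose from 1.28, 0.925, 0.828 and 1.24 CPM to 2.15, 2.22, 2.20 and 1.68 CPM (log2 fold change 0.94 ± 0.22, adjusted p = 0.00229). Within replicates 3 and 4 alone the calls of Mcf2l (adjusted p = 0.0615) and A530032D15Rik (adjusted p = 0.204) were lost. The call of the homeobox protein Hopx (adjusted p = 0.0462) was lost without si-dnmt + IFN replicate 1, 2, 3 or 4 and without si-dnmt + TNF + IFN replicate 1 or 2, at adjusted p of 0.0585 to 0.149. Of 253 genes lowered by IFN 79 fell further and 24 rose with TNF (31.2% and 9.49%, median -0.60). Among those that rose, Clec4e, a receptor for mycobacterial lipid, went from 5.17, 6.68, 1.29 and 1.07 CPM to 134, 137, 118 and 104 CPM (log2 fold change 5.14 ± 0.57, adjusted p = 1.04e-07). The collagen receptor Itga2 rose from 2.06, 2.69, 2.85 and 2.71 CPM to 66.5, 64.0, 49.9 and 45.4 CPM (log2 fold change 4.44 ± 0.21, adjusted p = 5.22e-15). Enpp2, which makes lysophosphatidic acid, rose from 0.856 ± 0.0836 to 23.6 ± 7.44 CPM (log2 fold change 4.77 ± 0.39, adjusted p = 4.72e-10). Of the 13341 genes in none of these classes 1262 rose and 1291 fell (9.46% and 9.68%), or 2015 and 2141 with the replicate block. Classes lowered by TNF and by IFN share genes with each other and with the raised classes.

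**Figure D4:**
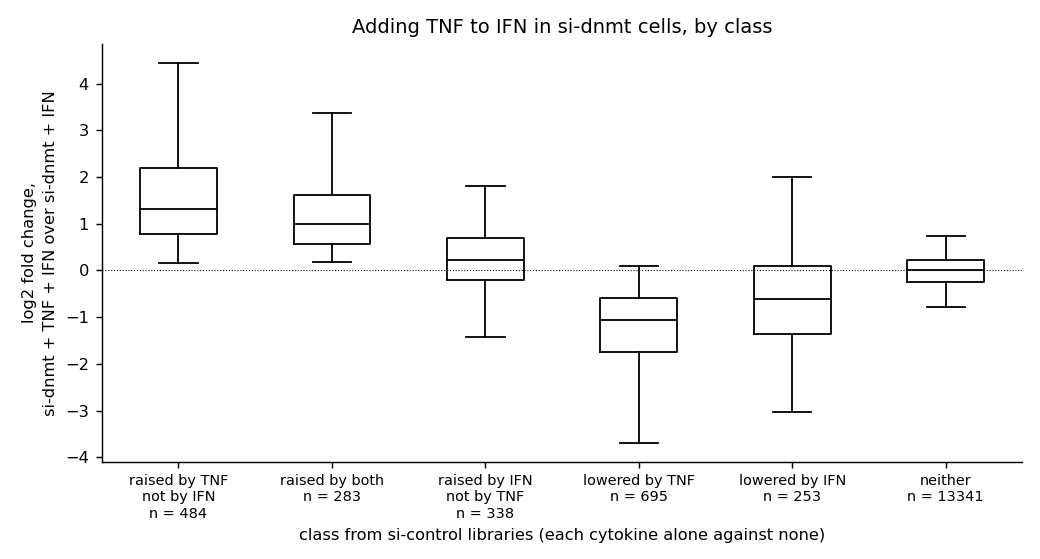
Log2 fold change of si-dnmt + TNF + IFN over si-dnmt + IFN for genes sorted by their response to each cytokine alone in si-control cells (boxes, quartiles with the median; whiskers, 5th to 95th percentile). The medians were 1.31 for genes raised by TNF and not IFN, 1.00 for both, 0.23 for IFN and not TNF, -1.06 for genes lowered by TNF, -0.60 for genes lowered by IFN and 0.00 for the rest.

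The same addition of TNF to IFN in si-control cells, measured in 8 other libraries, called 2386 genes higher (15.6%) and 2053 lower (13.5%). Of the 1884 genes higher in si-dnmt cells, 1496 were also higher in si-control cells, which is 79.4% of the first list and 62.7% of the second. Of the 1723 lower genes 1290 were lower in both (74.9% and 62.8%), and 0 genes higher and 2 genes lower in si-dnmt were called in the opposite direction in si-control. Across all 15254 genes, which are not independent replicates, the log2 fold changes of the 2 siRNA arms had a Pearson r of 0.838. The genes higher in si-dnmt cells had a median of 0.74 there and 0.72 in si-control cells. They were chosen by their call in si-dnmt cells, which favours the first median.

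Whether the response differed by siRNA was tested with an interaction term, which called 6 genes (0.0393%), 3 with a more positive change in si-dnmt and 3 with a more negative one. An unadjusted p under 0.05 was held by 845 of the 15254 genes, where a share of about 0.05 of all genes is reached by chance alone. The replicate block called 113 genes, among them the same 6. Tma16, a ribosome assembly factor, rose from 8.56, 11.3, 10.2 and 10.2 CPM to 81.0, 81.9, 122 and 118 CPM in si-dnmt cells (3.32 ± 0.16). In si-control cells it rose from 12.5 ± 2.76 to 36.9 ± 4.01 CPM (1.56 ± 0.16), an interaction of 1.75 ± 0.22, adjusted p = 0.000129. Ero1l, an oxidase of the endoplasmic reticulum, was at 218 ± 21.8 and 733 ± 203 CPM in si-control (1.75 ± 0.15). It was at 232 ± 11 and 308 ± 61.5 CPM in si-dnmt (0.41 ± 0.15), an interaction of -1.34 ± 0.21, adjusted p = 0.00318. Gys1, muscle glycogen synthase, went from 56.3 ± 2.34 to 121 ± 23.5 CPM in si-control and from 60.5 ± 3.12 to 61.8 ± 13.0 CPM in si-dnmt (-1.08 ± 0.17, adjusted p = 0.00318), and its exons overlap those of Ruvbl2. The change was smaller in si-dnmt cells for Ero1l and Gys1 and larger for Tma16. Appl2, an endosomal adaptor, had opposite fold changes, 0.67 ± 0.11, adjusted p = 4.63e-05 in si-control and -0.34 ± 0.11, adjusted p = 0.0279 in si-dnmt (interaction -1.01 ± 0.16, adjusted p = 0.00325). The call of its fall in si-dnmt was lost with no filter (adjusted p = 0.0662). It was also lost without si-dnmt + IFN replicate 1 or 2 and without si-dnmt + TNF + IFN replicate 1, 3 or 4 (0.0503 to 0.0953). Nmnat2, an enzyme of NAD synthesis, changed by -2.87 ± 0.17 in si-control and by -1.50 ± 0.17 in si-dnmt (interaction 1.37 ± 0.24, adjusted p = 0.0096). Col3a1, a fibrillar collagen, fell from 28.4 ± 8.06 to 0.429 ± 0.258 CPM in si-control and from 10.9 ± 2.31 to 1.28 ± 0.283 CPM in si-dnmt (interaction 2.98 ± 0.56, adjusted p = 0.0319). The call of Col3a1 was lost in 11 of the 16 fits that left out 1 library, with log2 values of 2.76 to 3.03. Genes of the co-stimulatory list were not called: the interaction was 1.23 ± 0.94, adjusted p = 1 for Icosl, -0.68 ± 0.43, adjusted p = 0.993 for Cd40 and -0.07 ± 0.31, adjusted p = 1 for Tnfsf4.

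TNF without IFN in si-dnmt cells, again in separate libraries, called 1754 genes higher (11.5%) and 1455 lower (9.54%). Of the 1884 genes higher when TNF was added to IFN 1153 were also higher with TNF alone, 61.2% of the first list and 65.7% of the second, and of the 1723 lower genes 1045 were also lower (60.7% and 71.8%). Opposite calls were made for 2 of the higher and 2 of the lower genes. The genes higher when TNF was added to IFN had a median of 0.74 there and 0.54 with TNF alone. They were chosen by their call with IFN present, which favours the first median, so the gap is no measure of a stronger response. Across all genes the Pearson r was 0.794.

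An interaction term for the presence of IFN called 54 genes (0.354%), 27 each way. The count was 277 with the replicate block and 35 without si-dnmt + TNF replicate 2. An unadjusted p under 0.05 was held by 933 of the 15254 genes, where a share of about 0.05 of all genes is reached by chance alone. On the log2 scale, genes such as Cd74 changed more with TNF alone than with TNF added to IFN, while in CPM the increase of Cd74 and Gbp4 was larger with IFN present. Cd74 went from 0.0630 ± 0.0569 to 12 ± 10.6 CPM with TNF alone and from 269 ± 149.97 to 499 ± 226 CPM when TNF was added to IFN (interaction -6.66 ± 1.26, adjusted p = 0.00808). The level of Cd74 with no cytokine was near 0, so the size of this difference is uncertain. Gbp4 went from 12 ± 3.70 to 81.6 ± 29.2 CPM and from 1221 ± 229 to 1559 ± 322 CPM in the same order (-2.42 ± 0.34, adjusted p = 0.00021). Gbp10 (-2.50 ± 0.42, adjusted p = 0.00176), Ms4a4d (-2.54 ± 0.43, adjusted p = 0.00176) and the protease Ctss (-3.31 ± 0.68, adjusted p = 0.0176) had the same pattern, and all 5 had a higher mean with IFN alone than with TNF alone. The call of Ctss was lost without si-dnmt replicate 3 (-3.27) or 4 (-3.18) and without si-dnmt + TNF replicate 2 (-2.95).

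On the same scale, other genes changed more when IFN was present. Tma16 went from 9.09 ± 1.81 to 19.6 ± 1.53 CPM with TNF alone and from 10.1 ± 1.12 to 100.5 ± 22.1 CPM with IFN present (interaction 2.21 ± 0.22, adjusted p = 1.14e-06). Sema4d, a semaphorin that acts on lymphocytes and ECs, went from 0.522 ± 0.178 to 1.07 ± 0.331 CPM and from 0.227 ± 0.0450 to 3.47 ± 0.808 CPM (2.88 ± 0.43, adjusted p = 0.000314). Cd40 went from 1.78 ± 0.520 to 5.11 ± 0.419 CPM and from 3.21 ± 0.231 to 37.2 ± 7.93 CPM (2.02 ± 0.40, adjusted p = 0.0143). Mcf2l fell with TNF alone (-1.84 ± 0.23, adjusted p = 9.93e-07) and rose when TNF was added to IFN (0.94 ± 0.22), an interaction of 2.78 ± 0.32, adjusted p = 1.05e-05. Mxd1, a transcription factor that opposes Myc, was at 29.8 ± 16.9 and 25.4 ± 3.44 CPM without IFN and at 34.5 ± 13.2 and 156 ± 5.58 CPM with it (2.41 ± 0.50, adjusted p = 0.0193). The call of Mxd1 was lost in 6 of the 16 fits that left out 1 library, at log2 values of 2.07 to 2.37. Ly6i (2.94 ± 0.68, adjusted p = 0.0466) lost its call in 11 of 16 such fits, at log2 values of 2.60 to 3.03.

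**Figure D5:**
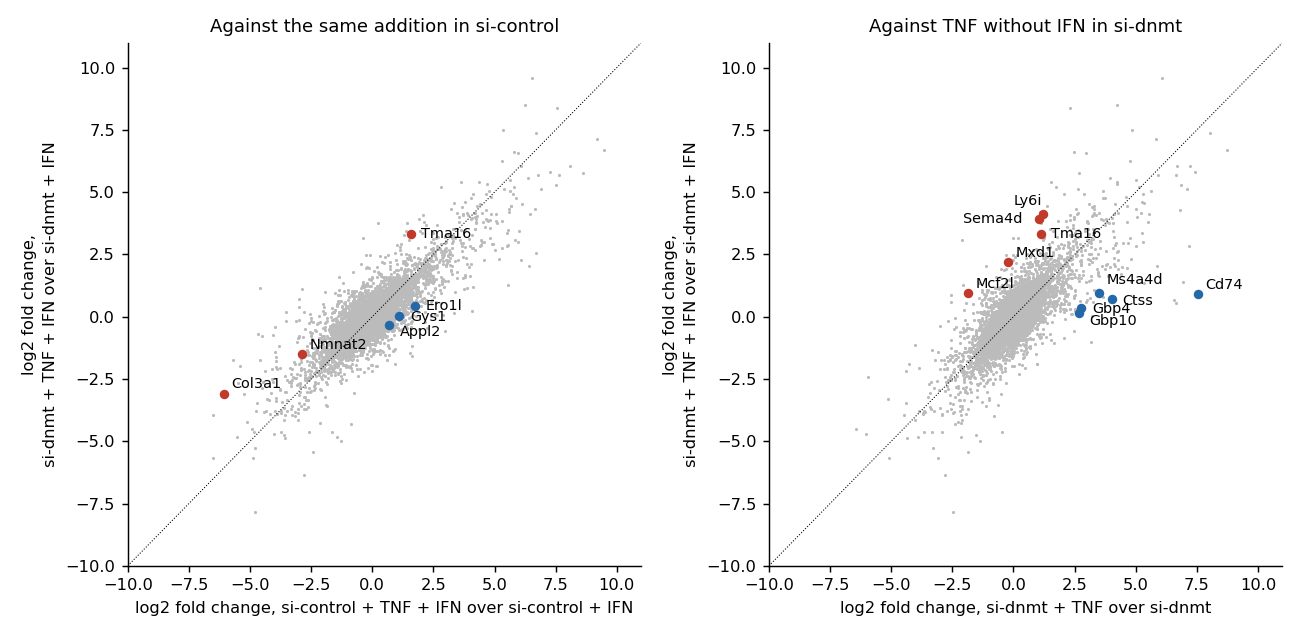
Log2 fold change of each gene when TNF was added to IFN in si-dnmt cells (vertical) against the same addition in si-control cells (left) and against TNF without IFN in si-dnmt cells (right), with a dotted line where both are equal. Points above the line had a more positive change in the comparison described here, and the genes named by the interaction tests are marked, in red above the line (Tma16 at 3.32 against 1.56 on the left) and in blue below it (Cd74 at 0.89 against 7.55 on the right).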

How the data were processed

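RNA-seq was measured in 32 libraries of Veravec ECs, 4 for each of 8 combinations of siRNA and cytokine. The values are raw counts of reads per gene, which the authors deposited per library and as 1 merged table, and the merged counts equalled the sums of the library tables in all cells. The submitters' processing notes name cutadapt 4.9, FastQC 0.12.1, MultiQC 1.27.1, featureCounts and DESeq2. The sources used here do not give the aligner, genome build, annotation or strand setting, so overlapping genes cannot be told apart, which touches 55 of the 168 genes that the naming rule allowed. The merged table holds 54429 symbols, in which 203 identifiers that share a symbol were summed. The tests used the library tables, in which each of 54532 identifiers kept its own row.

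Genes were kept by filterByExpr (minimum count 10, 15254 genes) and scaled by TMM. The edgeR (4.0.16, R 4.3.3) quasi-likelihood test was fitted to all 32 libraries with 8 group means, and p-values were adjusted by Benjamini-Hochberg over all tested genes. Calls are genes with an adjusted p under 0.05. Interactions were differences of 2 such contrasts. Genes with at most 3 counts per library in the lower group are given by a ratio of summed counts with an exact 95% interval, or by a bound with 3 counts per library as the floor, both for counting error only.

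Libraries were grouped by their labels. Deviations from the group means correlated between same-numbered libraries of the 2 groups at 0.47, 0.46, 0.48 and 0.52 for replicates 1 to 4. Different numbers within replicates 1 and 2 or within replicates 3 and 4 correlated at 0.43 to 0.47, and across these sets at -0.44 to -0.52. The likeness thus mainly followed the 2 sets, and same-numbered libraries were only slightly closer. No pair of libraries within si-dnmt + IFN or within si-dnmt + TNF + IFN agreed within sampling noise.

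The genes that could be named were, in each gene list, up to 4 rises and 4 falls with the largest changes, the 12 largest rises and falls under the rule in the text, up to 5 each way in each interaction, 3 each way in each class, and 12 genes of the study's questions such as Cd40 and Cdh5. Csf1, Cd80, Cd276, Cdk1 and Ccnb1 were named after their values were seen. Some genes that the rule allowed are not reported here. The members, lists and rules were chosen with earlier results of these data known. Alternatives were DESeq2 (1.42.0), its size factors in edgeR, no filter, only the libraries compared, the replicate block, leaving out each library, either replicate set alone, a 2-fold condition and, for motifs, the part of the window before the start.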

Additional observations from a re-analysis of the deposited data

Results flagged for a closer look

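In 8 of 262 groups of 4 libraries examined (131 genes named in the text, 2 groups each), 1 library lay apart from the other 3 by Dixon's criterion, which chance alone meets in about 1 of 20 groups. In si-dnmt + IFN, Spib had 0.167 CPM and Cybb 0.0556 CPM in replicate 1 and 0 in the others, Madcam1 had 0.462 CPM in replicate 2 against at most 0.046 CPM, and Nfkbie had 35.0 CPM in replicate 1 against 30.9 to 31.5 CPM. In the same group Tnfsf4 was low in replicate 4 (10.1 CPM, the others 11.2) and H2-DMb2 was low in replicate 3 (0.736 CPM, the others 1.83 to 2.02). In si-dnmt + TNF + IFN, Mcf2l was low in replicate 4 (1.68 against 2.15 to 2.22 CPM) and Chil5 was high in replicate 1 (0.369 against 0.0494 to 0.06 CPM).

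The response to added TNF differed by siRNA for 6 genes by the interaction test, with log2 differences (si-dnmt minus si-control) of 1.75 for Tma16, 1.37 for Nmnat2, 2.98 for Col3a1, -1.01 for Appl2, -1.08 for Gys1 and -1.34 for Ero1l. The response to TNF in si-dnmt cells differed by the presence of IFN for 54 genes, and the largest log2 differences (with IFN minus without) were 2.94 for Ly6i, 2.88 for Sema4d, 2.78 for Mcf2l, 2.41 for Mxd1, 2.21 for Tma16, -2.42 for Gbp4, -2.50 for Gbp10, -2.54 for Ms4a4d, -3.31 for Ctss and -6.66 for Cd74. For Ly6i the difference was 4.28 in replicates 1 and 2 alone and 1.61 in replicates 3 and 4 alone. These are values of the same libraries as in the main text and are no independent evidence.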

How the results depend on the processing

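The count of 3607 genes was 3905 with DESeq2, 3629 with DESeq2's size factors, 2931 with no filter, 3567 with only the libraries compared, 5470 with the replicate block (2681 of them lower) and 1193 with a further condition of at least 2-fold. Leaving out single libraries gave 2915 to 3291 genes. Replicates 1 and 2 alone called 5004 genes and replicates 3 and 4 alone 4687, and no called gene had the opposite sign under any of these. The 6 genes that differed by siRNA were 27 with DESeq2, 113 with the replicate block, 162 in replicates 1 and 2 alone, 630 in replicates 3 and 4 alone and 5 to 9 without single libraries. The 54 genes that differed by IFN were 96 with DESeq2, 122 with only the libraries compared, 277 with the replicate block, 737 in replicates 1 and 2 alone, 318 in replicates 3 and 4 alone and 35 to 50 without single libraries, 35 being without si-dnmt + TNF replicate 2. The cause of these shifts was not tested. The median of the leukocyte adhesion list (-0.09) turned to 0.0727 with no filter, 0.00481 without si-dnmt + IFN replicate 2 and 0.00941 without si-dnmt + TNF + IFN replicate 4 (single libraries left out, -0.105 to 0.00941). The median of the angiogenic and TGF-beta list turned to 0.128 in replicates 1 and 2 alone, and that of the matrix proteases to 0.0875 with no filter and 0.096 in replicates 1 and 2 alone. Before the start only, the kB motif was held by 10.6% of all windows, 18.4% of those of genes at least 2-fold higher and 8.24% of those at least 2-fold lower. Depths of 17362546 to 33500030 counts limit genes under about 1 CPM, whose folds rest on few reads.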
